A study of Mus musculus with 8 samples.

Results

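In mouse embryonic cortex lacking Prdm16 in its dorsal lineage, 354 stretches of chromatin at the ends of protein-coding genes were called as enriched in PRDM16 ChIP-seq while no peak of the control cortex touched them. They are called cKO-only gene-end regions here. They lay at 414 genes, mostly at gene starts, and the strongest were at Hsd3b7, Dnajc11, Gapvd1 and Lsm11. The members were selected on the peak calls themselves: a region had to be the union of overlapping peaks from both cKO lists, to share no base with a peak of either WT list, and to have its summit no more than 1 kb from one of the ends annotated for a protein-coding gene. Of the 1723 regions found in both cKO lists, 801 met the first conditions, and 354 of these 801 (44.2%, 95% Wilson interval 40.8 to 47.7) also lay at a gene end. Together the lists of the 2 genotypes gave 11813 regions found in both replicates of a genotype. Presence in cKO and absence in WT are thus the rule and not a finding. All Wilson intervals in the text cover counting error only.

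The cKO embryos (Emx1Ires-Cre; Prdm16flox/flox) and the WT embryos (Prdm16 flox/flox) both carried floxed alleles, at E15.5, and Cre was the difference between them. Emx1-driven Cre is active in the dorsal telencephalic lineage, so interneurons, vessels and microglia of a whole-cortex lysate keep an intact gene. Chromatin was crosslinked with paraformaldehyde and EGS and sonicated, and each genotype had 2 ChIP libraries. The labels do not say whether embryos were pooled or whether the replicates were separate litters, so the spread between these samples may be technical. An exact permutation p over 2 against 2 libraries takes its smallest value whenever the genotypes do not overlap, whatever that spread. The identifiers of the libraries begin with one code for both cKO libraries and another for both WT libraries, so genotype and that code cannot be told apart.

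PRDM16 is a zinc-finger protein of the PR-domain family, made in radial glia, the stem cells of the developing cortex, and known also for its part in brown fat. The start of a gene is its promoter, where RNA polymerase is loaded. Many mammalian promoters, above all those of genes active in most cells, lie in CpG islands, stretches rich in G, C and the CpG dinucleotide that hold sites for SP, KLF, ETS and NRF1 factors.

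The promoter sequences of 6 genes are shown because the summit of a cKO-only region fell inside each of them: the 5 with the highest mean fold among such genes, and Zzz3, the highest with both an SP or KLF motif and an ETS motif. Each runs 5′ to 3′ on the strand of the gene, from 250 bases before the RefSeq start to 50 bases after it, with positions in GRCm38.p6 (mm10). Capitals mark the GC box GGGCGG and the ETS motif CCGGAAG, on either strand.
Hsd3b7, chr7:127800359-127800658, plus strand: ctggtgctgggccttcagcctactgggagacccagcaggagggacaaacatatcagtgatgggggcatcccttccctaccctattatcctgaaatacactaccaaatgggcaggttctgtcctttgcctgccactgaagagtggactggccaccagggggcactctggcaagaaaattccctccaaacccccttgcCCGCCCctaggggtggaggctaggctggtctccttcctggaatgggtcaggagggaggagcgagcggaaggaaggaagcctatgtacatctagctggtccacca
Lsm11, chr11:45944886-45945185, minus strand: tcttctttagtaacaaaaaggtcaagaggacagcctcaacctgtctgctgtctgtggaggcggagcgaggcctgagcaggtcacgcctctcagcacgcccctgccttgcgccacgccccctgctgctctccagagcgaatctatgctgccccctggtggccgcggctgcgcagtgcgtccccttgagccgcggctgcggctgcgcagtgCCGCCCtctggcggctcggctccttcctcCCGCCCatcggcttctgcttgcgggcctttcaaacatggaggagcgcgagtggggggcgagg
Synm, chr7:67759693-67759992, minus strand: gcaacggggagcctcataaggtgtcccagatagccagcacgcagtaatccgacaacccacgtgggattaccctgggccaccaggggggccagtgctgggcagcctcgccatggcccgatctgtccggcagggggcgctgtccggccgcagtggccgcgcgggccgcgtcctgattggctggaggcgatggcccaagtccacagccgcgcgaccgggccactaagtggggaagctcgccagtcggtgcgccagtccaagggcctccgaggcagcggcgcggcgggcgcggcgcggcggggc
Ndufab1, chr7:122101799-122102098, minus strand: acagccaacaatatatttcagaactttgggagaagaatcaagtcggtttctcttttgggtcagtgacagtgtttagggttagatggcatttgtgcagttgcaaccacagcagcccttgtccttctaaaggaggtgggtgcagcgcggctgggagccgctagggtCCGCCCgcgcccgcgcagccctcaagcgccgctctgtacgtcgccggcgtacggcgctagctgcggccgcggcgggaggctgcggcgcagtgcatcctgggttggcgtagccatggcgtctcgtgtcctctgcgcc
Homer3, chr8:70282749-70283048, plus strand: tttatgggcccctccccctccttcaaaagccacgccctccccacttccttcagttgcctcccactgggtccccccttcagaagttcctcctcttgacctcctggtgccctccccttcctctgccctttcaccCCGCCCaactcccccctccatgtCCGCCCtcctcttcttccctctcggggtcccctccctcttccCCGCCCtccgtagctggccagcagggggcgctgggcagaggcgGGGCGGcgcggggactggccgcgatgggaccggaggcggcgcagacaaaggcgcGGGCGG
Zzz3, chr3:152395753-152396052, plus strand: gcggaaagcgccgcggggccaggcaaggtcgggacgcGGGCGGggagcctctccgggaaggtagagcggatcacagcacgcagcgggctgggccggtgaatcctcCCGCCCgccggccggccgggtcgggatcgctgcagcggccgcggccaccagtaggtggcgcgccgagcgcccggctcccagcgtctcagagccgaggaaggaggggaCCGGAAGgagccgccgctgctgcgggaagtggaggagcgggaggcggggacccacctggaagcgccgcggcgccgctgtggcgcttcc

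The 6 promoters differed in composition. The CpG ratio, the number of CpG dinucleotides over the number that the C and G content gives by chance, was 0.974 in Zzz3, 0.953 in Ndufab1, 0.838 in Synm and 0.722 in Lsm11. It was 0.564 in Homer3, which held 5 GC boxes, and 0.120 in Hsd3b7, which held 1. The promoter of Synm held none, and Zzz3 alone of the 6 held the ETS motif.

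The folds are the authors' own, the height of the ChIP pileup at the summit over the local background, each with 1 added. The region at Hsd3b7, which encodes an enzyme of bile acid synthesis, spanned chr7:127800385-127800698 and had a fold of 16.6 in cKO replicate 1 and 10.95 in cKO replicate 2. Its summit lay 56 bp before the start, and the end of Setd1a, a histone H3 methyltransferase gene, was also within 1 kb. The nearest WT peaks were 23243 and 13667 bp away in WT replicates 1 and 2. Behind these folds stood 65 and 58 reads at the summit in cKO replicates 1 and 2, over local backgrounds of 2.98 and 4.39 reads. The region was thus tall in both cKO libraries.

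The next highest regions varied in how even they were between the cKO libraries. Dnajc11, a mitochondrial DnaJ protein gene, had 17.6 in cKO replicate 1 and 9.52 in cKO replicate 2. Gapvd1, a regulator of Rab5 in endocytosis, had 14.7 and 10.9 in cKO replicates 1 and 2. Lsm11, a subunit of the U7 particle that trims histone mRNAs, was instead higher in cKO replicate 2, with 8.60 in replicate 1 and 13.8 in replicate 2. Synm, the gene of the intermediate filament protein synemin, had 12.8 and 8.99 in cKO replicates 1 and 2. Slc48a1, a heme transporter gene, had nearly equal folds of 10.1 and 10.8 in cKO replicates 1 and 2. Only Hsd3b7, Gapvd1 and Slc48a1 reached a fold of 10 in both cKO lists. The 7 regions with a mean fold of at least 10 are these 6 and the one at Pgls, a pentose phosphate pathway gene, with 12.9 and 8.54 in cKO replicates 1 and 2. The summit at Pgls lay 177 bp from its 3′ end, with a start of Niban3 also within 1 kb.

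For some genes of the next rank the replicates again differed, and for others they were close. Stau2, which encodes an RNA-binding protein of neuronal RNA transport, had 13.2 in cKO replicate 1 and 5.38 in cKO replicate 2. Cand2, whose product binds cullins, had 10.2 and 5.97 in cKO replicates 1 and 2. Foxo6, a forkhead factor gene, had 10.3 and 7.21 in cKO replicates 1 and 2. Homer3, a postsynaptic scaffold gene, was more even, with 8.32 and 7.43 in cKO replicates 1 and 2. The mitotic activator gene Cdc20 had 8.81 and 6.83 in cKO replicates 1 and 2. Ndufab1, the gene of the mitochondrial acyl carrier protein, had 8.69 and 7.96 in cKO replicates 1 and 2. Other regions among the 20 highest lay at Fam89b, Wipf2, Ankrd46, Reps1, Abca14 and Mapk1ip1l, with mean folds of 9.97, 9.88, 8.48, 8.11, 7.65 and 7.62 over the 2 cKO lists.

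Most members were far lower than these. The median fold over the 354 members was 4.67 in cKO replicate 1, with a range of 2.61 to 17.6, and 4.89 in cKO replicate 2, with a range of 2.87 to 13.8. The mean fold of the 2 lists was at least 8 in 16 members, at least 6 in 56 and at least 5 in 159. The median summit pileup was 23 reads in cKO replicate 1 and 21 in cKO replicate 2, over median backgrounds of 3.72 and 3.29 reads. A typical member stood in the middle of its list: the median rank by fold was 2290 of 4553 peaks in cKO replicate 1 and 1590 of 3088 in cKO replicate 2. The 500 highest peaks of each list held 39 members in cKO replicate 1 and 42 in cKO replicate 2.

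**Figure D1:**
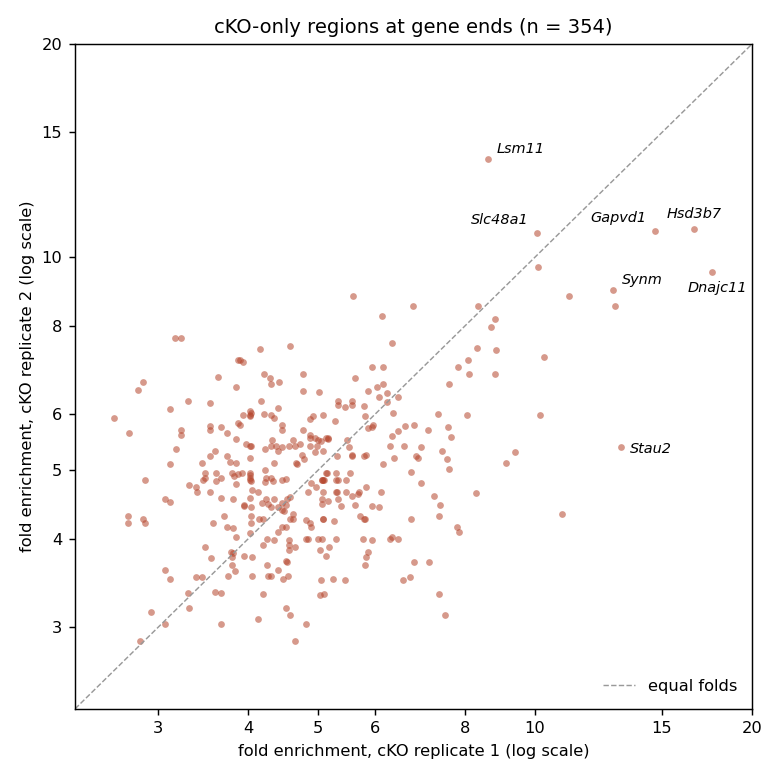
Each point is 1 of the 354 cKO-only gene-end regions, with the authors' fold enrichment in cKO replicate 1 on the horizontal axis and in cKO replicate 2 on the vertical axis, both on log scales, and the dashed line marks equal folds. Most points sit around the medians of 4.67 and 4.89 with little order between the replicates, and Hsd3b7, Gapvd1 and Slc48a1 are the 3 points above 10 on both axes.

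Among the members, the folds of the cKO libraries followed each other only weakly. Spearman's rho over the 354 members was 0.241, given as a description, since the members passed a threshold in both lists and share their libraries. The fold was higher in cKO replicate 1 in 170 members. The median SD between the 2 cKO folds of a member was 0.662. Summits lay at a median of 40.5 bp from each other in the 2 cKO lists, and 207 members had them within 50 bp. The rule asked for overlapping peaks, so close summits follow in large part from the selection. The order of members by fold, below the highest ones, is thus not well fixed by these 2 libraries.

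The number of members depended on the requirement for both cKO lists. With cKO replicate 2 alone 833 regions met the rule, and with cKO replicate 1 alone 1278 did. Without WT replicate 1 there were 418, and without WT replicate 2 there were 471. Because a WT signal can fall short of a call, the folds of the members were set beside the lowest fold a peak could have in WT. At the median WT background this limit was 3.46 in WT replicate 1 and 3.08 in WT replicate 2. The same limit at the median cKO background was 3.18 and 3.26 in cKO replicates 1 and 2. Both cKO folds were above both WT limits in 309 members (87.3%). Against the 5th percentile of all called WT folds, 4.22 and 3.58 in WT replicates 1 and 2, this held for 184 members (52.0%). With the cKO folds divided by 2, 17 members (4.80%) stayed above the WT limits at median background and 9 (2.54%) above the WT 5th percentiles. A WT signal with a fold of 0.5 times that in cKO could thus have gone uncalled at nearly every member. Since each fold has 1 added to pileup and background, the same ratio of reads gives a lower fold over a lower background. Median backgrounds at summits were 1.02 and 2.25 reads in WT replicates 1 and 2, against 3.72 and 3.29 in cKO replicates 1 and 2. The counts of members above the WT limits may therefore be too high.

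Regions with folds in the range of the members lay on both sides of each threshold. The members closest to the 1 kb limit were Kcnk9 at 982 bp, Med12l at 971 bp and Zbtb2 at 962 bp from a gene end, with folds of 5.14 and 4.96, 4.56 and 3.86, and 4.03 and 4.84 in cKO replicates 1 and 2. Just outside lay Ascl4 at 1003 bp, Tcf12 at 1012 bp and Nxnl1 at 1056 bp, with 4.03 and 4.84, 8.92 and 5.54, and 5.87 and 5.69. On the WT condition, the members nearest to a WT peak were at Zbtb45, Apaf1 and Slitrk5, with gaps of 16, 51 and 55 bp. Regions at Ddhd1, Spaca6 and Setd7 shared just 11, 13 and 14 bp with a WT peak and so are not members. A WT peak lay within 500 bp of 35 members and within 10000 bp of 107.

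The members sat at gene starts. The gene table gives no strand, and the strand came from the promoter table, which covers 313 of the 414 genes. Where the strand was given, 254 of 267 members (95.1%, 91.9 to 97.1) had a gene start within 1 kb. The other 13 lay only at 3′ ends, among them the regions at Rpl22, Eef1b2, Zbtb7b and Sox13. The strand was not given for 87 members. A start within 1 kb counted even where a 3′ end was nearer, as at Pgls. By the same count the share was 91.9% (87.6 to 94.7) at gene-end regions of both cKO lists that overlap a WT peak. It was 83.5% (79.6 to 86.7) at gene-end regions of both WT lists that touch no cKO peak. The median distance from the summit to the nearest gene end was 122 bp, and 302 members (85.3%) were within 500 bp.

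Summits gathered just upstream of the start. For the 250 members with a listed start within 1 kb, the median position of the summit relative to the start was -34.25 bp, that is upstream, with quartiles at -120 and 76.9 bp. Of these, 148 summits lay upstream and 102 at or downstream of the start. The window from 250 bases before to 50 after the start held 58.4% of them. At WT-only gene-end regions, those in both WT lists that touch no cKO peak, this window held 33.8% of 308, and the median distance to a gene end was 318 bp. At gene-end regions of both cKO lists that overlap a WT peak it held 66.7% of 201, at a median distance of 134 bp. The classes were built from the same lists, so these shares are a description with no test.

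**Figure D2:**
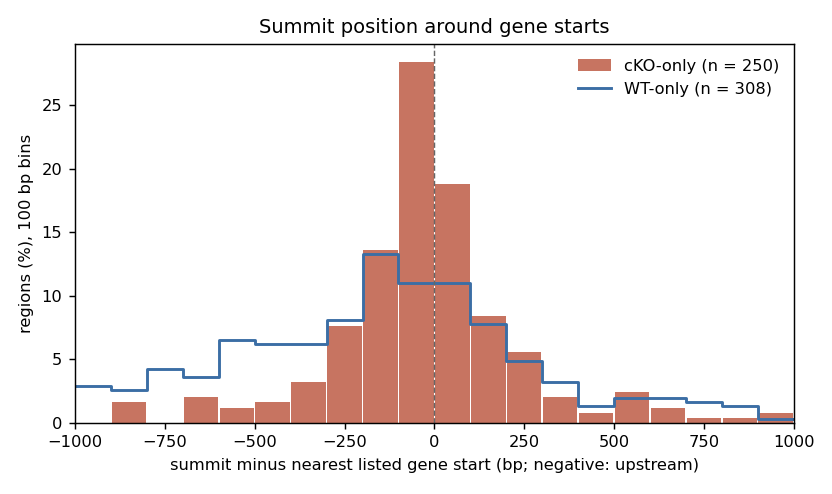
The horizontal axis gives the distance in bp from the nearest listed gene start to the summit, negative upstream, and the vertical axis the percentage of regions in each bin of 100 bp. Filled bars are the 250 cKO-only regions and the line is the 308 WT-only regions with a listed start within 1 kb. The bin just upstream of the start held 28.4% of the cKO-only and 11.0% of the WT-only regions.

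Gene neighbourhoods varied. A single gene had an end within 1 kb of the summit in 292 members and a pair of genes in 62. In 26 members the starts of 2 genes on opposite strands were both within 1 kb, as between Hspe1 and Hspd1, the paired mitochondrial chaperonin genes, a region picked out after its values were seen, with folds of 4.93 and 5.96 in cKO replicates 1 and 2. Dnajc11 and Efnb2 each had more than 1 member. The other region at Dnajc11 lay 415 bp from an end of the gene and had 6.08 and 6.33 in cKO replicates 1 and 2. At Efnb2, which encodes an ephrin ligand, neighbouring regions 180 and 614 bp upstream of the start had 5.93 and 4.46, and 3.87 and 4.94, in cKO replicates 1 and 2. Members were narrow, with a median width of 313 bp. The widest were at Ppp3ca, a catalytic calcineurin gene, at 783 bp, Tbc1d9b at 759 bp and Tspan3 at 746 bp, and their mean folds were 4.24, 5.46 and 4.48.

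The promoters at the members were CpG-rich. Taken were the 310 listed promoters whose start lay within 1 kb of a member summit, and they belong to 276 genes. The median CpG ratio was 0.878 at the members, against 0.567 over all 21262 promoters of protein-coding genes, and the median GC content was 66.3%, against 56.3%. A CpG ratio of at least 0.6 was found in 91.3% of the member promoters (87.6 to 94.0), against 47.7% of all promoters. At WT-only gene-end regions this share was 69.1% (64.1 to 73.7), and at cKO regions that overlap a WT peak 85.4% (80.3 to 89.3). The Hsd3b7 promoter shown above, at 0.120, was therefore unlike most of them, although its region was the highest.

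**Figure D3:**
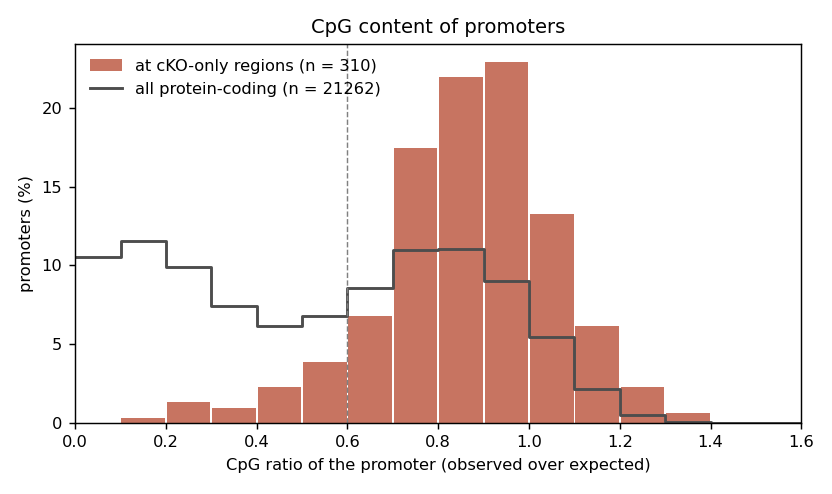
The horizontal axis is the CpG ratio of the 300 bp promoter and the vertical axis the percentage of promoters in each bin of 0.1, the last bin holding all of 1.5 and above. Filled bars are the 310 promoters at cKO-only regions, the line is all 21262 promoters of protein-coding genes, and the dashed line marks 0.6. The member promoters form 1 group above the mark, 91.3% of them, while all promoters spread over both sides, with 47.7% above.

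Motif content was compared with all promoters and with those of a CpG ratio of at least 0.6, a choice made after the CpG values were seen. This CpG-rich set was not matched to the members: its median CpG ratio was 0.838, against 0.878 at the member promoters. The GC box GGGCGG, bound by SP and KLF factors, was in 73.2% of the member promoters (68.0 to 77.9), against 46.2% of all promoters and 74.1% of those with a CpG ratio of at least 0.6. The ETS motif CCGGAAG was in 21.9% (17.7 to 26.9), against 11.6% of all and 19.7% of the CpG-rich ones. The NRF1 core TGCGCA was in 15.8%, against 9.74% and 16.7%. For these motifs the member promoters, taken within 1 kb of a summit, were near the CpG-rich promoters. In the 161 promoters that hold the summit, the GC box share was 76.4% and the NRF1 share 16.8%. The ETS share there was 27.3% (21.0 to 34.7), and the value of the CpG-rich promoters lay below that interval. This difference was not tested. The E-box CACGTG, bound by USF and MYC factors, was in 15.48% of the member promoters (11.9 to 19.9), against 7.84% of all and 11.4% of the CpG-rich ones, whose value lay just below that interval. In promoters that hold the summit the interval was 11.3 to 22.6 and included that value. Some promoters belong to the same gene and 15 motifs were searched, and the intervals allow for neither.

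The other motifs were near or below their share among CpG-rich promoters. The homeobox core TAATTA was in 0.323% of the member promoters (0.0570 to 1.80), against 4.53% of all and 2.01% of the CpG-rich ones. The TATA box TATAAA was in 4.52%, against 12.6% and 5.58%, and the ZNF143 motif ACTACAA in 1.29%, against 3.60% and 3.97%. The CCAAT box CCAAT was in 33.5%, against 38.2% and 36.5%, and the CRE core TGACG, which also lies inside the full CRE, in 32.6%, against 23.6% and 35.5%. The full CRE TGACGTCA was in 1.61%, against 2.23% and 3.72%, and the AP-1 motif TGANTCA in 3.55%, against 6.99% and 3.45%. The YY1 motif AAGATGG was in 7.42%, against 6.24% and 7.01%, and the RFX motif GTTGCC in 11.3%, against 12.6% and 12.4%. The B box GTTCNANNC was in 5.81%, against 8.43% and 7.51%, and the ZBTB33 motif TCTCGCGA in 1.29%, against 1.41% and 2.76%. All 15 motifs were searched on both strands. A match says only that the letters are in the window.

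Of the genes that mark cortical cell types, Cux2 was the one with a member at an end. Over all protein-coding genes, 1.89% had a cKO-only region within 1 kb of an end, and since the rule made this count nothing is read from its size or from the counts of the lists, which have no test. None of 20 radial glia genes, 12 intermediate progenitor genes, 12 interneuron genes, 9 choroid plexus and hem genes, 7 endothelial genes and 7 microglia genes had one. With so few genes a list the upper Wilson bounds run from 16.1% to 35.4% and include the 1.89% of all genes. Of 19 cortical neuron genes 1 had one, Cux2, a homeodomain factor gene of upper-layer neurons, with folds of 4.21 and 6.83 in cKO replicates 1 and 2. A WT-only region lay at an end of 7 of the 20 radial glia genes, 3 of the 12 intermediate progenitor genes and 5 of the 19 neuron genes. The same held for 1 of the 9 choroid plexus and hem genes, for no gene of the other marker lists, and for 2.49% of all protein-coding genes.

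Genes of protein synthesis and turnover were among those with a member. Of 86 cytosolic ribosomal protein genes 5 had a region, among them Rpl22, Rpl37, Rps10 and Rps14. The fold at Rpl22 was 8.28 in cKO replicate 1 and 4.64 in cKO replicate 2, and at Rpl37 it was 5.13 and 5.54, so their order turned round between the replicates. Of 78 mitochondrial ribosomal protein genes Mrpl17, Mrpl39 and Mrpl23 had one, and Mrpl17 had 6.46 and 6.33 in cKO replicates 1 and 2. No gene of these ribosomal lists had a WT-only region at an end, but 3 cytosolic and 2 mitochondrial ones had a cKO region there that overlaps a WT peak, as did 1.51% of all protein-coding genes. Psmd6, which encodes a subunit of the proteasome lid, was the 1 of 47 proteasome genes, with 6.33 and 7.55 in cKO replicates 1 and 2. Of 401 genes in the ubiquitin list 16 had one, and the highest were Rnf214, Ube2cbp, Klhl24 and Ube2v2, with mean folds of 6.23, 5.80, 5.35 and 5.13. Of 74 translation factors Eef1b2 alone had one, and of 35 tRNA synthetase genes none did.

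Among nuclear proteins, 17 of 470 zinc finger genes had a region at an end. The highest were Zfp90, Zfp619, Zfp326 and Zbtb7b, with mean folds of 6.57, 6.38, 5.28 and 5.19. Of 134 histone modifier genes 4 had one, Setd1a (which shares the region of Hsd3b7), Prmt3, Brd7 and Kmt2c. Of 96 widely expressed transcription factor genes 3 had one: E2f5 with 6.59 and 5.404, Nrf1 with 5.80 and 5.97, and Usf1 with 3.84 and 5.12 in cKO replicates 1 and 2. Of 245 developmental transcription factor genes Foxo6, Sox13 and Foxo3 had one, while 15 had a WT-only region. Of 177 splicing and RNA-binding genes 4 had one, Lsm11, Lsm7, U2af2 and Rbm33, and of 111 polymerase, general factor and Mediator genes Med12l and Gtf2a1. None of 100 histone genes had one.

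The cell-biological lists lay on both sides of the 1.89% of all protein-coding genes. Their shares ran from 0 in the mitochondrial import list to 3.51% in the cell cycle list, with no test. Lists defined by symbol also hold genes with other roles, such as Kif1b, a kinesin of axonal transport, in the cell cycle list. Of 307 vesicle traffic genes 9 had a region, with Sec24b, a COPII coat gene, highest at 7.56 and 5.76 in cKO replicates 1 and 2, then Tbc1d9b, Vps4a and Sec16a. Of 316 cilium and centrosome genes 9 had one, led by Ccdc59, Ccdc102a, Cep135 and Wdr41, and of 171 cell cycle genes 6, led by Cdc20, Kif1b, Cdc73 and Cdk13. Of 375 solute carrier genes 6 had one, led by Slc48a1, Slc36a1 and Slc35b2. Of 202 ion channel genes 4 had one, among them Gria1, an AMPA receptor gene, with 9.12 and 5.12 in cKO replicates 1 and 2, Hcn3 and Kcnk9. Of the 89 genes in the respiratory chain list Uqcrh and Ndufc1 had one. Ndufab1, described above, also encodes a complex I subunit but is not in that list, which was defined by symbol. Of 89 DNA repair genes Fancf had one. None of 39 mitochondrial import genes and none of 1465 olfactory and vomeronasal receptor genes had one. In all, 97 of the 414 genes were in any of the 29 lists.

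**Figure D4:**
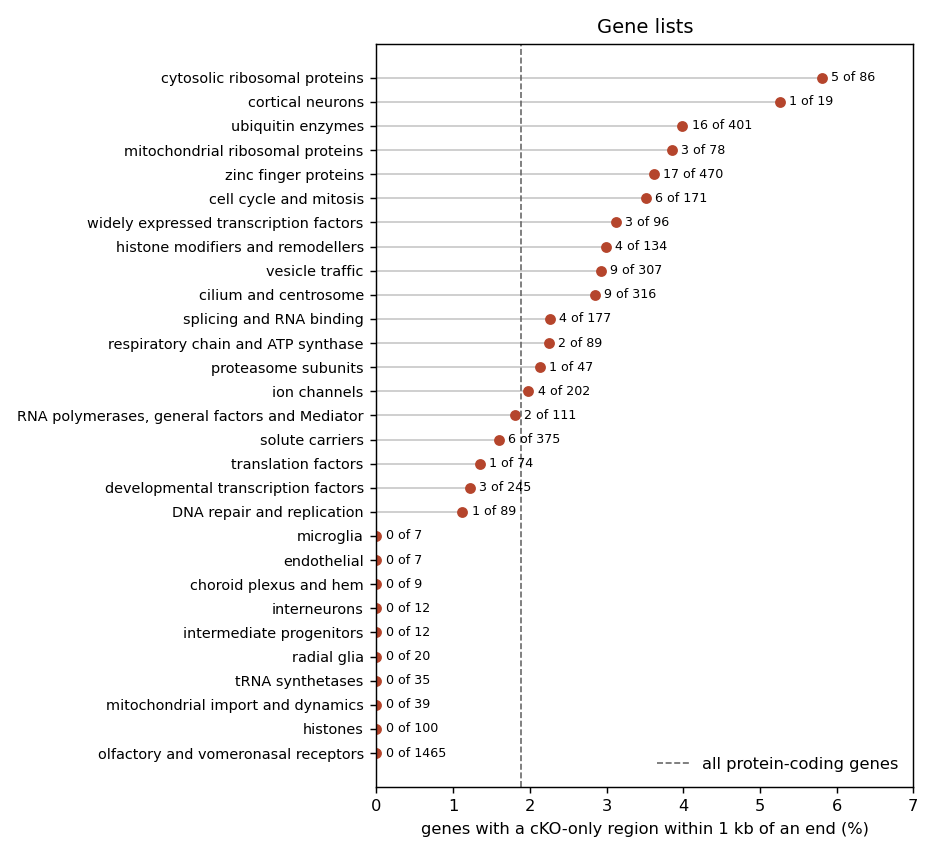
Each row is a gene list, and the horizontal axis gives the percentage of its genes that have a cKO-only region within 1 kb of an end, with the number of such genes beside each point. The dashed line is the 1.89% of all protein-coding genes. The cytosolic ribosomal list is highest at 5.81%, from 5 genes, and 10 lists are at 0.

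Some genes at the members carried WT binding elsewhere. A region of both WT lists lay in the gene or within 1 kb of it for 61 of the 414 genes (14.7%, 11.6 to 18.5), against 12.5% of all protein-coding genes, so the members' genes were near the background. Of the 414 genes, 8 also had a WT-only region at an end (1.93%, against 2.49% of all genes). Prdm16 itself, at chr4:154316122-154637360, had no member at its ends and held 2 regions of both cKO lists. Peak lists give no expression, so they do not check the deletion.

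The position at gene ends was shared by the cKO lists as a whole. Of all peaks, 40.04% and 40.28% had their summit within 1 kb of a gene end in cKO replicates 1 and 2, against 10.15% and 10.04% in WT replicates 1 and 2. As counts these were 1823 of 4553 and 1244 of 3088 peaks in cKO replicates 1 and 2. In WT replicates 1 and 2 they were 1406 of 13852 and 2677 of 26652 peaks. The counts of gene-end peaks thus overlapped between the genotypes, and the difference is one of share. The mean shares were 40.2 ± 0.174% in cKO and 10.1 ± 0.0749% in WT (SD, n = 2 each), a difference of 30.07 percentage points, and the shares of the genotypes did not overlap. An exact two-sided permutation test over the 4 libraries gave p = 0.333, the smallest value that 2 against 2 allow. With every list limited to its 3088 highest peaks by fold, the shares were 36.6% and 40.3% in cKO replicates 1 and 2, against 3.60% and 3.40% in WT replicates 1 and 2. These are the lists that chose the members, so the difference is no independent support for them.

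**Figure D5:**
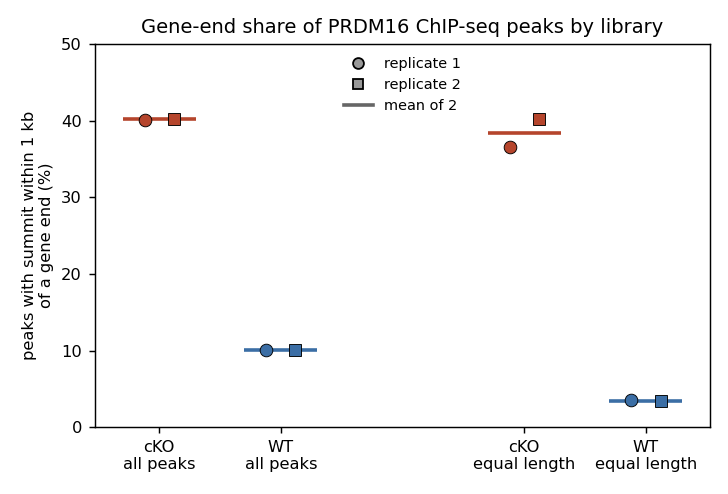
The vertical axis is the percentage of peaks with a summit within 1 kb of a gene end, for all peaks and for lists of equal length. Points are single libraries and bars the means of 2. The cKO libraries sit between 36.6% and 40.3% and the WT libraries between 3.40% and 10.2%.

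The promoter features were also seen over all gene-end peaks of the cKO lists, members included. Among promoters at gene-end peaks, a CpG ratio of at least 0.6 was found in 88.7% and 88.2% in cKO replicates 1 and 2, against 79.8% and 73.7% in WT replicates 1 and 2. The ETS motif was in 19.7% and 20.6% in cKO replicates 1 and 2, against 14.4% and 13.99% in WT replicates 1 and 2. These per-library shares were added after the member values were seen. For each the genotypes did not overlap, and an exact permutation test, two-sided, gave the smallest possible p of 0.333 again. The same lists chose the members, which were not removed, so these differences are no independent support for the member values. The lists differed in background too, with medians of 3.72 and 3.29 reads per base at cKO summits in replicates 1 and 2, against 1.02 and 2.25 at WT summits in replicates 1 and 2. The part of this background in the members was not tested.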

How the data were processed

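PRDM16 ChIP-seq peak lists of 2 cKO and 2 WT libraries were analysed; input libraries and other assays were not analysed here. Per the submitters' processing notes, FastQC, cutadapt, Bowtie2 2.2.8 and MACS2 2.1.1 were used with the mm10 build; settings are not given in the sources used here. The authors deposited 1 peak list per library, called per library and not on pooled samples. In the deposited lists a peak's enrichment is a fold, a ratio of pileup to local background with 1 added to each, and significance is the authors' −log10 p-value and −log10 q-value, with a largest q-value of 0.0491.

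Within a list, overlapping peaks of chromosomes 1 to 19 and of X and Y were merged, and an overlap of 1 bp counted as shared. A summit is the mean of the summits of the highest peaks of both replicates. Lists hold no read totals, so pileup and background were solved from fold and p-value under MACS2's Poisson model, which gave a whole-number pileup within 0.001 of −log10 p for 100% of summits tested. Gene ends and promoters came from RefSeq tables of GRCm38.p6 (21883 protein-coding genes, 17491 with a promoter); exons and introns were not used here. Shares have Wilson 95% intervals. Python 3.11.15, numpy 2.4.6, pandas 2.3.3 and scipy 1.17.1 were used, and the region and pileup steps were tested on simulated data.

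The genes named are those at the 20 highest members by mean fold, the members nearest each threshold, the 3 widest, genes with more than 1 member, Prdm16, and list genes (all from marker lists, the 4 highest from lists defined by symbol). A few genes that this rule names are not reported here. The members and the 29 lists were chosen with earlier results of these data known. Alternatives were the q-value, overlap, WT distance, gene-end window, list length, promoter set, each library left out, and pairing by replicate number. The labels do not say that a replicate number marks a shared litter or day, so pairing was an alternative only.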

Additional observations from a re-analysis of the deposited data

How the results depend on the processing

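Of 118 values recomputed under alternatives, 109 were classed as the same, 9 as moved and 0 as reversed. The number of members had to stay within a set factor, and the median fold within the median SD. The other shares had to stay within their main Wilson interval. The difference in gene-end share had only to stay positive, and no other result could be classed as reversed. This difference ran from 22.7 points with gene starts only to 34.93 with lists of equal length, against 30.07. The number of cKO-only gene-end regions ranged from 418 to 1278 with each library left out, in place of 354; leaving out a cKO library (833 without cKO replicate 1, 1278 without cKO replicate 2) removes the requirement for a second cKO list. The share of cKO-only regions at gene ends, 44.2%, was 37.7% with a 500 bp window and 51.8% with a 2 kb window, by construction of the window, and 37.5% with lists of equal length, where shorter WT lists leave more cKO regions without a WT overlap. The ETS share was 27.3% and the full CRE share 0% in promoters that hold the summit, and the ZNF143 share was 4.24% without cKO replicate 1 and 3.35% without cKO replicate 2; the cause was not tested. With a replicate block, pairing cKO and WT libraries by number, the difference in gene-end share stayed 30.07 points (29.89 and 30.24 in the pairs) and the exact permutation p was 0.5, the smallest that pairing allows. A WT signal below the limit for a call could have gone unseen, at median backgrounds of 1.02 and 2.25 reads per base in WT replicates 1 and 2. The lists hold no read totals, so depth itself was not measured.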

Other observations

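The X chromosome held few of the members. Of the 354 cKO-only gene-end regions 2 (0.565%) were on X, at Stag2, a cohesin subunit gene, with folds of 8.10 and 6.83 in cKO replicates 1 and 2, and at Bclaf3, with 5.79 and 5.23. The X chromosome carries 4.41% of protein-coding genes. At WT-only gene-end regions 14 of 518 (2.70%) were on X. Over all peaks the X share was 0.549% and 0.745% in cKO replicates 1 and 2, against 1.64% and 1.48% in WT replicates 1 and 2, with p = 0.333 by exact permutation, two-sided, the smallest that 2 against 2 allow. This count was made after the data were seen, and the labels do not give the sex of the embryos.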
